A study of Mus musculus with 5 samples.

Results

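The 10 genes described here encode neuronal surface and secreted proteins of 4 families: the seizure-related genes Sez6, Sez6l and Sez6l2, the olfactomedin genes Olfm1, Olfm2 and Olfm3, the leucine-rich glioma-inactivated genes Lgi1 and Lgi2, and the LGI receptor genes Adam22 and Adam23. They were chosen by symbol, as the families of Sez6 and Olfm1, which the study assayed by RT-qPCR, together with the LGI ligands and their ADAM receptors, and make up 10 of the 55573 genes in the count table. RNA-seq libraries were made from poly(A) RNA of Neuro-2a (N2A) cells, an established mouse neuroblastoma line, after transient transfection with 60 pmol of an siRNA. The siCtl group (n = 2, replicates 1 and 3) received a commercial negative-control siRNA, and the siUpf1 group (n = 3, replicates 1, 2 and 3) received an siRNA against Upf1. The cells are one unsorted line with no other genetic change named, and the labels do not say whether replicates were separate cultures, so p-values measure the spread between these libraries. The comparison asks which RNAs change in level when UPF1 is reduced.

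UPF1 is an RNA helicase at the centre of nonsense-mediated mRNA decay (NMD), a pathway that degrades mRNAs whose translation stops upstream of an exon junction and can also act on mRNAs with upstream open reading frames or long 3′ untranslated regions (3′ UTRs). SEZ6 proteins are membrane proteins of neurons with CUB and sushi domains, and SEZ6 is cut from the cell surface by the protease BACE1. Olfactomedins are secreted glycoproteins, of which OLFM1 (noelin, or pancortin) binds AMPA-type glutamate receptors. LGI1 is a secreted synaptic protein, mutated in an inherited epilepsy, that binds ADAM22 and ADAM23, which are members of the ADAM metalloprotease family without protease activity.

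The libraries held between 20402205 and 27717594 counts. Upf1 fell from 5230 ± 18.1 normalised counts (SD, n = 2) to 2449 ± 46.6 (SD, n = 3), which is 46.8% of siCtl (DESeq2 adjusted p = 7.09e-101), so the siUpf1 libraries retained part of the Upf1 mRNA. Of 12 neuroblastoma and neuron markers, 10 had a mean of at least 100 normalised counts, while Nefl and Nefm were near 0, and the summed level was 43703 to 43921 in siCtl and 49164 to 52220 in siUpf1. The summed level of 5 astrocyte markers was 34.0 to 52.4 normalised counts in siCtl and 23.2 to 32.6 in siUpf1, with Slc1a2 and Gja1 at 0. That of 5 microglia markers was 5.24 to 5.66 in siCtl and 0 to 3.77 in siUpf1, with Cx3cr1 and P2ry12 at 0. The 5 oligodendrocyte markers summed to 462 to 502 normalised counts in siCtl and 518 to 548 in siUpf1, of which Mbp alone held 373 and 410 in siCtl, with Mog and Mag at 0, and the 5 fibroblast and endothelium markers summed to 300 to 306 and 222 to 232. The part of these marker shifts in the results was not tested.

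The siRNA that sets the groups is shown first, because a strand of an siRNA can also act on other RNAs through its seed, bases 2 to 8, which is in capitals. Each strand has 19 nt. The strand given in the labels has the sequence of the Upf1 mRNA, and in a search of the annotated transcripts its full length was found in Upf1 transcripts only. The strand that pairs with Upf1 mRNA is its complement.
Upf1 siRNA, strand in the labels: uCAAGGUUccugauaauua
Upf1 siRNA, complementary strand: uAAUUAUCaggaaccuuga
The 7-base DNA match to the seed of the complementary strand, GATAATT, was in no 3′ UTR of the 10 genes, against 7.58% of 12579 tested protein-coding genes. The match to the other seed, AACCTTG, was in the 3′ UTRs of Adam23, which was tested, and Lgi2, which was not, against 9.81% of the tested genes. Both motifs were searched on the transcript strand of 1 representative 3′ UTR per gene. The one searched for Adam22 has 76 nt, while those of other complete coding transcripts, which were not searched, have up to 6334 nt. The Adam23 site lies at chr1:63594697-63594703 on the plus strand (GRCm38, as are all coordinates here), with the seed match in capitals.
Adam23 3′ UTR site: gagcagaAACCTTGattgcta

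The RT-qPCR primers of the study mark which part of Sez6 and Olfm1 was assayed. The study assayed them as NMD targets, which it defined in part by their rise in these libraries. That assay compared cultured cortical cells of wild-type and Fmr1-knockout mice, with each mRNA set against its pre-mRNA, and not the N2A cells described here. Only the mRNA primers are shown. The primers are shown because their place decides which isoforms they report. No part of them is capitalised.
Sez6 mRNA, forward: gcccctgtagctggaatttct
Sez6 mRNA, reverse: gcaggaacgactggttagcc
Olfm1 mRNA, forward: gccataagcagcatctagcc
Olfm1 mRNA, reverse: ataggcgccaatctcctctt
The Sez6 forward primer matched chr11:77954750-77954770 and the reverse primer chr11:77962929-77962948, in coding exons 3 and 4 of Sez6-202. The amplicon of 228 nt was found in 6 of 9 annotated Sez6 transcripts, among them the coding Sez6-201 and Sez6-202, 3 retained-intron transcripts and the NMD-annotated Sez6-208. The Olfm1 forward primer matched chr2:28212656-28212675 in exon 3 and the reverse primer chr2:28214739-28214758 in exon 4. That amplicon of 182 nt was found in 3 of 5 annotated Olfm1 transcripts, all protein-coding.

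The GENCODE annotation lists an NMD isoform for 4 of the 10 genes, namely Sez6, Sez6l2, Lgi1 and Adam22. These are 4 of the 7 that were tested, against 28.4% of the 12579 tested protein-coding genes. The stop codons of these isoforms are shown in capitals within 12 bases before and 9 after, beside the stop of a protein-coding transcript of the same gene where it differs, and with Olfm1, which has no annotated NMD isoform.
Sez6-208, NMD isoform: gagtgctgcgcaTAGgctctgggg
Sez6-202, coding: gacgagagaataTGAagtttccat
Sez6l2-207, NMD isoform: gaagtttccatcTGAgcctcaagt
Lgi1-201, NMD isoform: gttatctcactgTAAggcccatcc
Lgi1-207, coding: gacttaagcgcaTGAgacaccaaa
Adam22-218, NMD isoform: ataacattacccTGAcatgtggac
Adam22-201, coding: aactcaactgagTAAgttgtacct
Olfm1-201, coding: tccgatgagttgTAGctcccactt
Sez6-208, Sez6l2-207 and Adam22-218 are annotated as incomplete at an end and carry support level 5, the lowest, while Lgi1-201 carries level 1. The stop of Sez6-208 is in exon 9 of 16, with 7 exon junctions after it, whereas that of Sez6-202 is in exon 17 of 17. Sez6-208 starts one of its exons 55 nt inside exon 8 of Sez6-202, at chr11:77973783-77973837 on the plus strand, and therefore leaves out the coding bases below, whose last 2 bases, in capitals, precede the alternative exon start.
Sez6-202, bases absent from Sez6-208: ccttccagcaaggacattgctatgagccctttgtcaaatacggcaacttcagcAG
Lgi1-201 ends exon 1 at chr19 position 38265106, 9 nt beyond the end of exon 1 of Lgi1-207 at position 38265097. The extension holds the stop, with 7 junctions after it. Sez6l2-207 uses the stop of coding transcripts and has 1 junction 202 nt after it, and the stop of Adam22-218 is in exon 6 of 8. The last base of the stop is at chr11 position 77974450 in Sez6-208 (plus strand), chr7 position 126970082 in Sez6l2-207 (plus), chr19 position 38265101 in Lgi1-201 (plus) and chr5 position 8091398 in Adam22-218 (minus). In the representative coding transcripts none of the 10 genes had an exon junction after the stop, against 3.97% of the tested genes. At least 1 ATG in the 5′ UTR of these transcripts was found for 8 of the 10 genes. It was found for 6 of the 7 that were tested, against 51.7% of the tested genes. Sez6 had 0, and Olfm1 and Adam22 had 1 each. Whether translation starts at them was not tested. The deposited counts are summed over each gene, so coding, retained-intron and NMD isoforms cannot be told apart in any value that follows.

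**Figure D1:**
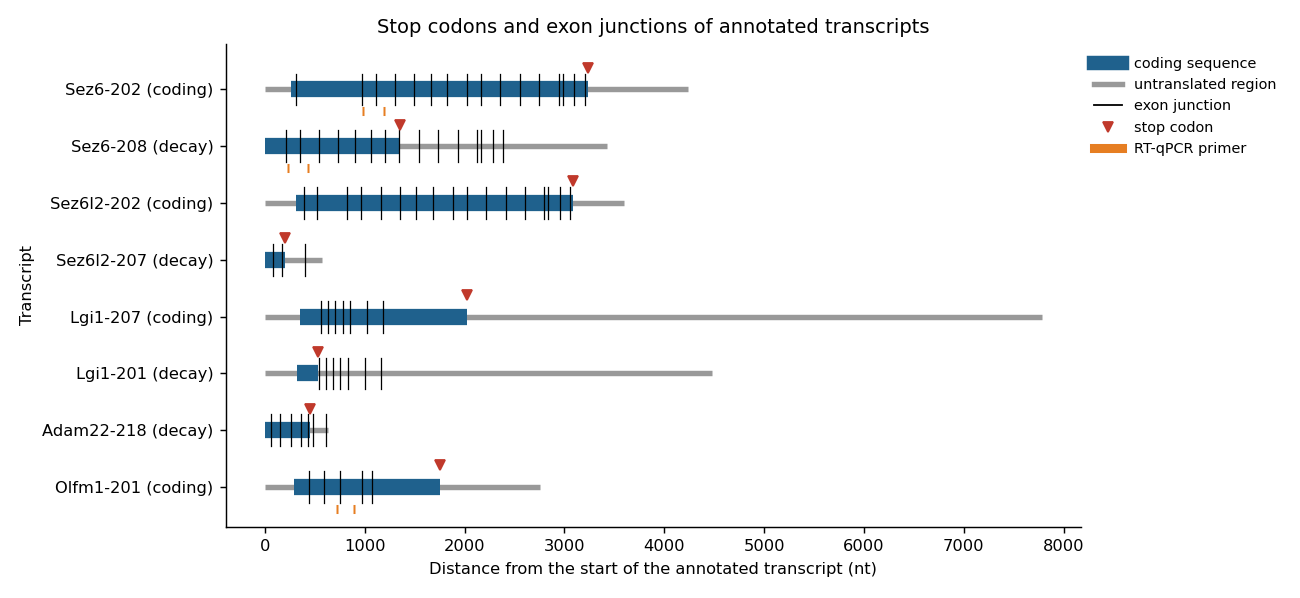
Maps of 4 coding transcripts and 4 annotated NMD isoforms (decay), drawn to scale along the spliced transcript in nt from its 5′ end, with coding sequence, untranslated regions, exon junctions, stop codons and the mRNA primers marked. The stop of Sez6-208 and of Lgi1-201 sits upstream of 7 exon junctions, and the 4 coding transcripts have no junction after their stop.

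Among the 10 genes, Sez6, Olfm1 and Adam22 rose after siUpf1, by 2.02-fold, 2.18-fold and 1.47-fold. Reads were found for 9 of them, and 7 passed the low-count filter of DESeq2 and were given an adjusted p-value. DESeq2 called 3 of these 7 higher and 0 lower at an adjusted p under 0.05, and the other 4 did not pass. Over all 15191 tested genes 44.9% were called, 22.0% higher and 22.9% lower. Since a rise in these libraries is part of how the study defined the targets it assayed, the direction of Sez6 and Olfm1 is not independent evidence. At an unadjusted p under 0.05, 4 were higher and 1 was lower, against 24.8% and 25.5% of all tested genes. The quasi-likelihood test of edgeR called 5 higher, adding Olfm2 and Lgi1, and 1 lower, Sez6l2, where 27.5% and 27.1% of 15368 genes were called. The median log2 fold change of the 7 genes was 0.44, and that of all tested genes was -0.00239. In 6 of the 7 the siCtl and siUpf1 libraries did not overlap, against 69.4% of all tested genes. In bulk RNA, less RNA per cell and fewer cells that make it cannot be told apart, nor can synthesis and decay.

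**Figure D2:**
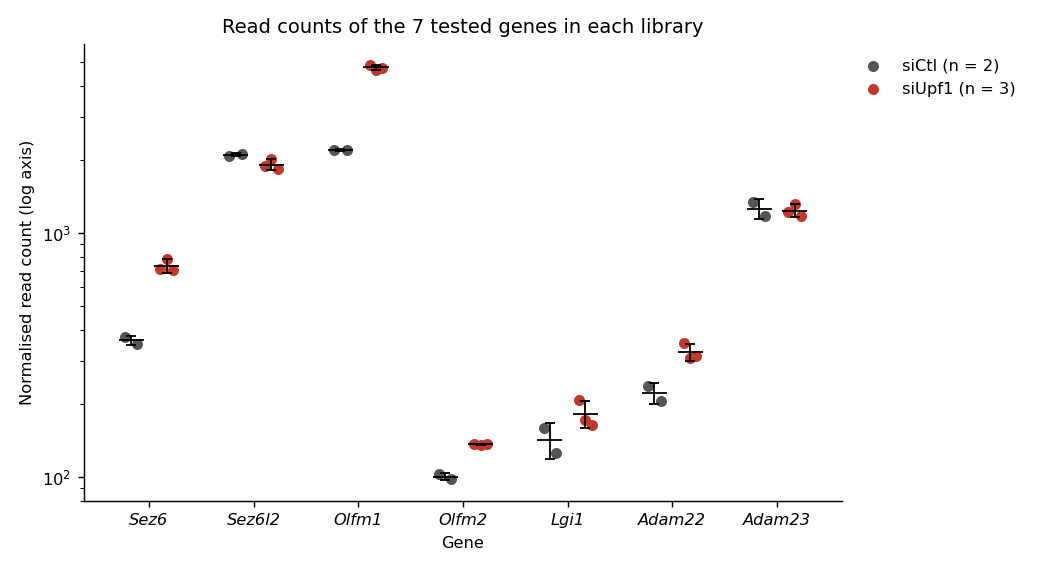
Normalised read counts (log axis) of the 7 tested genes in each library, with siCtl (n = 2) and siUpf1 (n = 3) as points, the group mean as a line and the SD as a bar. Sez6, Olfm1 and Adam22 lie higher in all 3 siUpf1 libraries, and the Adam23 groups overlap.

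**Figure D3:**
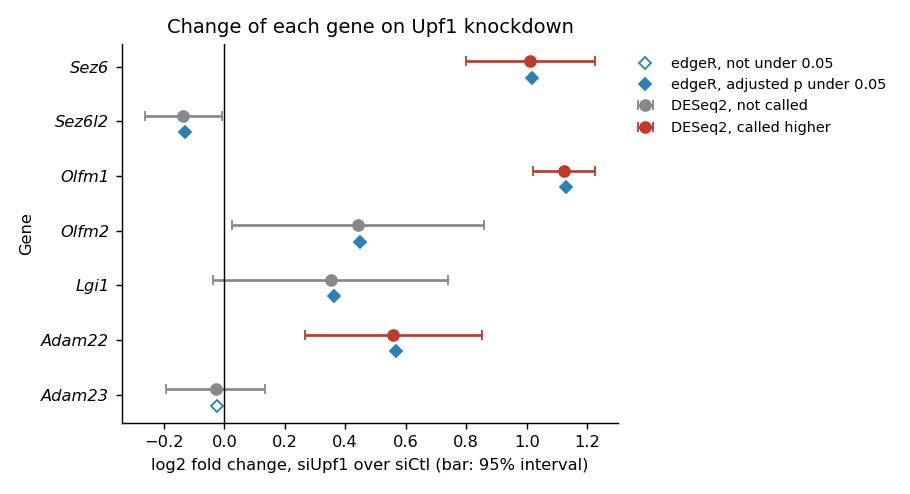
Log2 fold change of siUpf1 over siCtl for each tested gene, with its 95% interval by DESeq2 (circles) and the edgeR estimate (diamonds, filled where the adjusted p was under 0.05). The intervals of Sez6, Olfm1, Adam22 and Olfm2 lie above 0, that of Sez6l2 lies below 0, and those of Lgi1 and Adam23 span it.

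Sez6 (ENSMUSG00000000632.13, chr11:77930800-77979048, plus strand), which encodes a membrane protein that shapes dendrites and excitatory synapses, rose 2.02-fold. Its normalised counts were 374 and 352 in the siCtl libraries and 711, 786 and 702 in the siUpf1 libraries. Every siUpf1 library lay above both siCtl libraries, and the raw counts behind them were 357, 373, 800, 626 and 788. The mean went from 363 ± 15.8 (SD, n = 2) to 733 ± 45.7 (SD, n = 3), a log2 fold change of 1.01 (SE 0.109, 95% interval 0.80 to 1.22, DESeq2 adjusted p = 2.19e-19). The log2 fold change was between 0.96 and 1.05 under the 11 alternatives, and the gene was called in all of them. A log2 fold change of at least 1 with a call was reached by 2.79% of tested genes, and Sez6 and Olfm1 are among them.

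Sez6l2 (chr7:126950563-126970606, plus strand), the related SEZ6-like membrane protein, had the highest level of the family. Its normalised counts were 2070 and 2114 in siCtl and 1877, 2017 and 1827 in siUpf1. The siUpf1 libraries all lay below the siCtl libraries, at 91.2% of the siCtl mean (2092 ± 31.1, SD, n = 2, against 1907 ± 98.2, SD, n = 3). The log2 fold change was -0.14 (SE 0.065, 95% interval -0.26 to -0.01) with a DESeq2 adjusted p of 0.0773, and edgeR gave 0.0434. Without siUpf1 replicate 2 the DESeq2 adjusted p was 0.0366. A stretch of 413 nt of its exons is shared on the same strand with the gene model Gm21984, so reads there cannot be assigned to either gene alone. Whether such reads were counted or left out was not tested.

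Sez6l (chr5:112419151-112577185, minus strand) had 4 and 1 raw counts in siCtl and 4, 6 and 4 in siUpf1, so it was near the limit of detection and was given no fold. Per kilobase of exon, Sez6 took 11.2% ± 0.573 (SD, n = 2) of the family's summed level in siCtl and 21.8% ± 0.224 (SD, n = 3) in siUpf1. The share of Sez6l2 went from 88.7% ± 0.641 to 78.0% ± 0.274. The summed level of the family was 560 ± 4.27 normalised counts per kb in siCtl and 581 ± 31.5 in siUpf1, a ratio of 1.04.

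**Figure D4:**
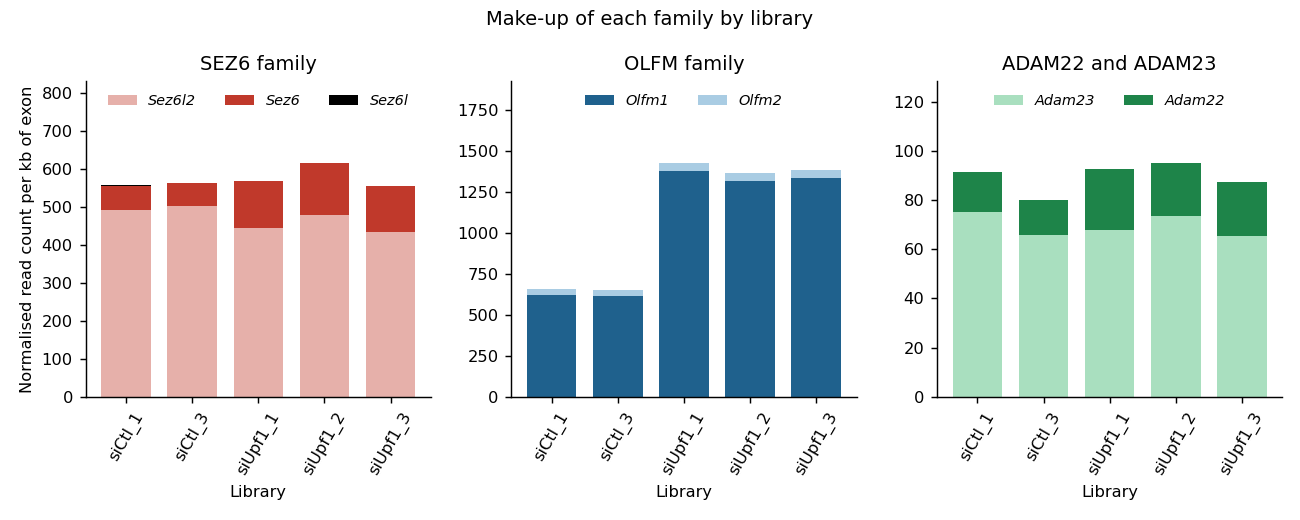
Stacked levels in normalised counts per kb of exon of the genes of 3 families in each of the 5 libraries. Sez6 makes up 11.2% of the SEZ6 family in siCtl and 21.8% in siUpf1 on average, and the OLFM stack is 2.13-fold higher in siUpf1.

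Olfm1 (ENSMUSG00000026833.18, chr2:28192992-28230736, plus strand), the secreted noelin, was the most abundant of the 10 genes per kilobase of exon in both groups. Its normalised counts were 2199 and 2180 in siCtl and 4894, 4676 and 4745 in siUpf1. The groups did not overlap, and the gap between them was larger than the spread within either. The mean rose from 2190 ± 13.4 (SD, n = 2) to 4772 ± 111 (SD, n = 3), a log2 fold change of 1.12 (SE 0.052, 95% interval 1.02 to 1.23, DESeq2 adjusted p = 3.04e-100). It stayed between 1.11 and 1.15 under the alternatives and was called in all 11. The representative Olfm1 transcript has a 3′ UTR of 1008 nt, at the 50.9th percentile of tested genes, and the one of Sez6 has 1003 nt, at the 50.8th.

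Olfm2 (chr9:20667690-20746349, minus strand), another secreted olfactomedin, had 103 and 98.1 normalised counts in siCtl and 137, 136 and 136 in siUpf1. All siUpf1 libraries were above the siCtl libraries. The means were 100.4 ± 3.26 (SD, n = 2) and 136 ± 0.712 (SD, n = 3), and the log2 fold change of 0.44 (SE 0.213, 95% interval 0.02 to 0.86) had a DESeq2 adjusted p of 0.0783. The edgeR test gave an adjusted p of 0.00834, and the adjusted p ranged from 0.00834 to 0.362 over the alternatives. Olfm3 (chr3:114904078-115125722, plus strand) had 0 reads in all 5 libraries, which allows up to 0.108 to 0.147 CPM (counts scaled to library size), a limit that covers counting error only. The summed level of the olfactomedin genes per kilobase rose 2.13-fold, and Olfm1 held 94.2% ± 0.143 of it in siCtl and 96.3% ± 0.0646 in siUpf1.

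Lgi1 (chr19:38264536-38312214, plus strand), the secreted ligand, had 159 and 125 normalised counts in siCtl and 207, 172 and 164 in siUpf1. The lowest siUpf1 library was just above the highest siCtl library. The means were 142 ± 23.9 (SD, n = 2) and 181 ± 23.0 (SD, n = 3), with a log2 fold change of 0.35 (SE 0.198, 95% interval -0.04 to 0.74) and a DESeq2 adjusted p of 0.141. The edgeR test gave 0.0383, and the log2 fold change was 0.18 to 0.53 over the alternatives. The representative 3′ UTR of Lgi1 has 5759 nt, longer than 97.9% of those of tested genes. It is the longest among 4 complete coding transcripts, whose 3′ UTRs have 47 to 5759 nt. The exons of Lgi1 share 532 nt with Gm42723 on the opposite strand, and the counting was stranded. Lgi2 (chr5:52533517-52566462, minus strand) had 1 read in siUpf1 replicate 1 and 0 in the other 4 libraries, and no fold was taken.

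Adam22 (chr5:8072352-8368160, minus strand), an LGI1 receptor of the postsynaptic membrane, had 237 and 206 normalised counts in siCtl and 355, 307 and 313 in siUpf1. All 3 siUpf1 libraries were above both siCtl libraries. The mean rose from 221 ± 22.1 (SD, n = 2) to 325 ± 25.9 (SD, n = 3), a log2 fold change of 0.56 (SE 0.149, 95% interval 0.27 to 0.85, DESeq2 adjusted p = 0.000646). Without siCtl replicate 3 the log2 fold change was 0.46 and the adjusted p was 0.0742. It was the only one of the 11 alternatives in which Adam22 was not called. It has 24 annotated transcripts, and while its representative 3′ UTR has 76 nt, other complete coding transcripts have up to 6334 nt.

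Adam23 (chr1:63445891-63596276, plus strand), the receptor on the presynaptic side, had 1342 and 1176 normalised counts in siCtl and 1218, 1319 and 1170 in siUpf1. The groups overlapped. The means of 1259 ± 117 (SD, n = 2) and 1236 ± 76.0 (SD, n = 3) gave a log2 fold change of -0.03 (SE 0.083, 95% interval -0.19 to 0.13, DESeq2 adjusted p = 0.820). The sign of its log2 fold change turned to 0.065 without siCtl replicate 1 and to 0.011 without siUpf1 replicate 3. Per kilobase, Adam22 and Adam23 together stood at 85.7 ± 8.07 in siCtl and 91.7 ± 4.07 in siUpf1, and Adam22 held 18.0% ± 0.103 and 24.7% ± 2.08 of that, or 28.9% ± 0.144 and 37.9% ± 2.64 with the length of the representative transcript.

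Per kilobase of merged exon the order in siCtl was Olfm1 (616 ± 3.77 normalised counts per kb, SD, n = 2), Sez6l2 (497 ± 7.38), Adam23 (70.3 ± 6.53), Sez6 (62.8 ± 2.73), Olfm2 (37.7 ± 1.22), Adam22 (15.4 ± 1.54) and Lgi1 (12.5 ± 2.11). In siUpf1 it was Olfm1 (1343 ± 31.3, SD, n = 3), Sez6l2 (453 ± 23.3), Sez6 (127 ± 7.90), Adam23 (69.0 ± 4.24), Olfm2 (51.1 ± 0.267), Adam22 (22.7 ± 1.81) and Lgi1 (15.9 ± 2.03). In siCtl the ranges of mean ± SD overlapped for the neighbours Adam23 and Sez6 and for Adam22 and Lgi1, and in siUpf1 no neighbours overlapped. The order depends on the length used. With the length of the representative transcript in place of merged exons, a setting chosen after seeing the data, Adam23 stood at 196 ± 18.2 normalised counts per kb in siCtl and 192 ± 11.8 in siUpf1, and Sez6 at 85.6 ± 3.72 and 173 ± 10.8, so that Adam23 was above Sez6 in siCtl and their ranges overlapped in siUpf1. Adam22 then stood at 79.8 ± 7.96 and 117 ± 9.35, above Olfm2 in both groups (50.1 ± 1.63 and 68.0 ± 0.355).

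Within families, log2 ratios of raw counts, with 0.5 added to each, compare members without the scaling between libraries. The log2 ratio of Sez6 to Sez6l2 was -2.47 and -2.59 in siCtl and -1.40, -1.36 and -1.38 in siUpf1, a difference of 1.15. The log2 ratio of Olfm1 to Olfm2 was 4.41 and 4.47 in siCtl and 5.15, 5.10 and 5.12 in siUpf1, a difference of 0.68. The log2 ratio of Adam22 to Adam23 was -2.50 and -2.51 in siCtl and -1.78, -2.10 and -1.90 in siUpf1, a difference of 0.58. None of the 3 ratios overlapped between the groups, and single genes did not overlap for 69.4% of all tested genes. The share over other gene pairs was not computed. Sez6, Olfm1 and Adam22 were also the 3 genes called higher, so the ratios in part restate those calls. Of the 8 family pairs, the 3 shown were the ones with at least 10 counts in every library for both genes. With 2 libraries against 3, the smallest p an exact permutation test can give is 0.1, and each ratio gave that value (two-sided exact permutation, adjusted p = 0.1). Leaving out a library left the differences between 1.09 and 1.21, 0.66 and 0.71, and 0.51 and 0.67.

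Genes of the same pathways were read in 4 lists. Among 15 genes for the processing of SEZ6 and its receptor partners, 10 were tested, with 3 higher and 3 lower, beside 22.0% higher and 22.9% lower over all 15191 tested genes. Bace1, the protease that sheds SEZ6, rose from 593 ± 40.6 to 919 ± 28.6 normalised counts (log2 fold change 0.63, adjusted p = 8.17e-11), and Bace2, a related protease, fell from 4833 ± 25.1 to 3673 ± 171 (-0.40, adjusted p = 5.62e-13). Of the gamma-secretase genes reported here, Ncstn (log2 fold change -0.0014, adjusted p = 0.987) and Aph1a (0.02, adjusted p = 0.886) were not called, and are named after their values were seen, while Aph1b rose from 301 ± 12.7 to 452 ± 6.25 (0.58, adjusted p = 1.04e-05). Psen2 fell from 567 ± 28.8 to 363 ± 10.3 (-0.64, adjusted p = 1.32e-07) and Psenen from 507 ± 27.6 to 396 ± 17.2 (-0.36, adjusted p = 0.00583), all by DESeq2 over all 15191 genes. Without siCtl replicate 3, and in the fit with a replicate block, 2 were called lower, with Psenen lost, as also without siUpf1 replicate 3. Csmd1, a further CUB and sushi domain gene, rose from 89.6 ± 8.08 to 170 ± 25.4 (0.92, adjusted p = 8.96e-05).

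Of 17 olfactomedin relatives and partners, 9 were tested, with 5 higher and 1 lower, beside 22.0% and 22.9% of all tested genes. Ngfr, the p75 neurotrophin receptor, rose from 3653 ± 138 to 8411 ± 125 normalised counts (log2 fold change 1.20, adjusted p = 2.49e-145). The adhesion G-protein-coupled receptor genes Adgrl1 (4342 ± 98.4 to 6360 ± 175, 0.55, adjusted p = 3.1e-29) and Adgrl2 (3066 ± 140 to 3625 ± 58.6, 0.24, adjusted p = 2.97e-05), the latrophilins, also rose. Lingo1, part of the Nogo receptor complex, rose from 494 ± 1.19 to 736 ± 34.0 (0.58, adjusted p = 5.62e-08), and Gria2, an AMPA receptor subunit that the study also assayed by RT-qPCR, rose from 218 ± 6.23 to 673 ± 82.6 (1.63, adjusted p = 2.34e-33). A rise in these libraries is part of how the study defined the targets it assayed, so the direction of Gria2 is not independent evidence. The relative Olfml2b fell from 199 ± 9.93 to 104 ± 16.5 (-0.95, adjusted p = 1.45e-05).

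Of 12 LGI relatives and partners, 8 were tested, with 4 higher and 0 lower by DESeq2, beside 22.0% and 22.9% of all tested genes. None was lower at an unadjusted p under 0.05 or by edgeR, where 25.5% and 27.1% of genes were. Dlg2, a postsynaptic scaffold protein, rose from 471 ± 27.4 to 987 ± 52.7 (log2 fold change 1.07, adjusted p = 6.72e-27), and Kcnab1, a potassium channel beta subunit, from 445 ± 30.3 to 826 ± 32.5 (0.89, adjusted p = 1.25e-17). Adam11, another LGI-binding ADAM, rose from 36.0 ± 6.89 to 79.3 ± 14.1 (1.13, adjusted p = 0.00141), and Kcna4 from 8.44 ± 0.0742 to 27.5 ± 1.06 (1.71, adjusted p = 0.00787). Without siCtl replicate 3, and in the fit with a replicate block, 2 were called higher, with Adam11 and Kcna4 lost, and without siCtl replicate 1 Kcna4 was lost and 3 were called.

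Of 9 ADAM relatives that keep protease activity, 8 were tested, with 3 higher and 1 lower, beside 22.0% and 22.9% of all tested genes. Adam12 rose from 938 ± 72.7 to 1489 ± 83.9 normalised counts (log2 fold change 0.67, adjusted p = 4.4e-15), Adam15 from 1956 ± 16.6 to 2685 ± 76.1 (0.46, adjusted p = 1.26e-13) and Adam19 from 4512 ± 277 to 6138 ± 123 (0.44, adjusted p = 3.58e-17). Adam17, the sheddase TACE, fell from 1663 ± 89.7 to 1035 ± 34.9 (-0.69, adjusted p = 1.2e-18). The medians of log2 fold change were 0.04 for the SEZ6 list, 0.55 for the olfactomedin list, 0.61 for the LGI list and 0.16 for the protease list, beside -0.00239 for all tested genes.

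**Figure D5:**
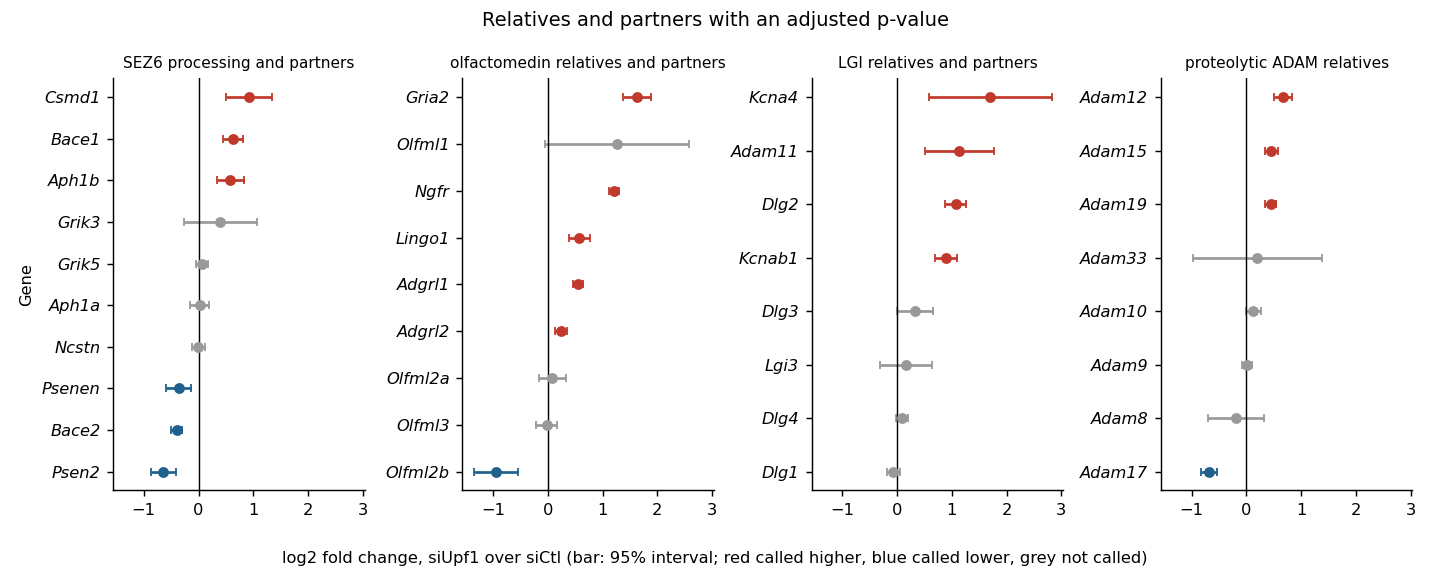
Log2 fold change of siUpf1 over siCtl for the tested genes of the 4 lists, with 95% intervals, in a panel per list (red called higher, blue called lower, grey not called). Of the genes called higher, Kcna4, Gria2, Ngfr, Adam11 and Dlg2 lie above 1. Those called lower are Bace2, Psen2, Psenen, Olfml2b and Adam17.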

How the data were processed

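RNA-seq counts of 5 N2A libraries (2 siCtl, 3 siUpf1) were analysed. The deposited counts were made by the authors with fastp, STAR 2.7.0f in 2-pass mode on GRCm38.p6 and featureCounts (Subread 1.6.4) over exons on the reverse strand. They came from single-end reads and were not normalised. Each mRNA library was made with 200 ng of RNA as input. Version lists come from the submitters' processing notes. PCR duplicates cannot be recognised, so the limits given for counts of 0 cover counting error only.

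DESeq2 1.42.0 (R 4.3.3), Wald test with group as the only term and median-of-ratios size factors, was the test, after the study's methods. Adjusted p-values (Benjamini-Hochberg) run over all 15191 tested genes, and a call needs an adjusted p under 0.05. edgeR 4.0.16 quasi-likelihood, other size factors, a count minimum of 10 in 2 libraries, no independent filtering, a replicate block and each library left out were alternatives. Ratios used a pseudocount of 0.5. Annotation and transcript sequences were GENCODE M21 on GRCm38; the files' own annotation release was M22 or M25. The scripts were tested on simulated counts. The 10 genes, the lists and the tests were chosen with earlier results of these data known. The named genes are the 10 genes, Upf1 and up to 6 called genes per list by mean normalised count. A gene of the SEZ6 list is not reported here and is left out of its counts.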

Additional observations from a re-analysis of the deposited data

How the results depend on the processing

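DESeq2 called 3 of the 10 genes higher and 0 lower, and edgeR called 5 higher and 1 lower, adding Olfm2, Lgi1 and Sez6l2. Leaving out each library gave 2 to 3 higher and 0 to 1 lower. Over all genes, edgeR called 4220 higher and 4172 lower, the replicate block 1957 and 1962, and leaving out libraries 2393 to 2944 and 2374 to 3115, against 3341 and 3481. TMM factors gave 3223 and 3571 and total-count factors 3445 and 3087. The replicate block left 2 of 3 lower calls in the SEZ6 list and 2 of 4 higher calls in the LGI list, and leaving out libraries gave 2 to 3 and 2 to 4. The log2 fold change of Adam23, -0.03 over all libraries, lay between -0.12 and 0.065 when libraries were left out, and was above 0 (0.065 and 0.011) without siCtl replicate 1 and without siUpf1 replicate 3. The cause was not tested. Of 77 log2 fold changes of the tested genes, 70 kept their direction and side of the threshold, 1 lost its call (Adam22), 4 gained one and 2 changed sign. The fit with a replicate block changed no call among the 10 genes (Adam22 adjusted p = 0.04). Replicate 2 is in siUpf1 only, so the block takes up that library, and the fit is not separate from leaving it out. The log2 fold change of Sez6 was 0.9621 with the block and 0.9622 without siUpf1 replicate 2. Deviations of same-numbered libraries from their group means had correlations of -0.034 (number 1) and -0.0623 (number 3). These cannot decide whether such libraries were paired, because the 2 siCtl libraries deviate from their mean by equal and opposite amounts. With the length of the representative transcript, added after seeing the data, Sez6 held 12.8% of its family in siCtl and 24.6% in siUpf1, and Olfm1 94.1% and 96.2%. Counts limit Sez6l, Olfm3 and Lgi2, which had at most 6 reads in a library. With 2 siCtl libraries, leaving out either leaves 1, which is then assumed to vary like the siUpf1 libraries.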
